A study of Homo sapiens with 8 samples.

Results

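The genes described here build the mitochondrial respiratory chain and ATP synthase. They were taken from a gene expression array by name: every gene probe whose name begins with NDUF, UQCR or ATP5, with SDH followed by A, B, C or D, or with COX followed by a digit. This gave 156 of the 58201 gene probes on the array and 113 of its 43317 gene names, of which 106 were measured well enough to test among 21283 genes. The arrays were hybridised with RNA from SAS cells, an established human squamous carcinoma line from the tongue, after transient transfection with 1 of 3 miRNAs (miR-874-3p, miR-210-3p and miR-629-3p) or with a negative control miRNA (NC). Each of the 4 groups had 2 arrays. The labels give SAS cells, grown with puromycin, and RNA extraction at 48 hours, with 100 ng of RNA for each array. The study's methods instead name SAS cells carrying green fluorescent protein and a shorter time after transfection. Both arrays of a group came from 1 cell line, and nothing says whether they were separate cultures, so the p-values measure only the spread between these arrays. The study asked which genes the 3 miRNAs change, because it had linked them to cisplatin resistance of head and neck cancer cells.

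The respiratory chain passes electrons from NADH and succinate to oxygen and pumps protons across the inner mitochondrial membrane. Complex I oxidises NADH, complex II (succinate dehydrogenase) oxidises succinate, complex III passes the electrons on to cytochrome c, complex IV (cytochrome c oxidase) reduces oxygen, and complex V uses the proton gradient to make ATP. Most subunits are encoded in the nucleus, and assembly factors put the complexes together without staying in them. miR-210-3p is induced by low oxygen and is known for lowering mitochondrial respiration. ISCU, an iron-sulphur cluster scaffold, and the members NDUFA4, SDHD and COX10 have been reported elsewhere as its targets.

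The mature sequences of the 3 transfected miRNAs, from RefSeq, are shown because they differ in the seed that pairs with a target. The seed, bases 2 to 8, is in capitals.
miR-210-3p: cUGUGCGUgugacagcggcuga
miR-629-3p: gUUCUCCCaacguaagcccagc
miR-874-3p: cUGCCCUGgcccgagggaccga
In GRCh38.p14 they lie on the minus strand at chr11:568112-568133, chr15:70079387-70079408 and chr5:137647582-137647603. No pair of the 3 shares a seed. Of the 156 member probes, 1 (0.641%) held the 6 letters CGCACA that pair with bases 2 to 7 of miR-210-3p, against 0.335% of all gene probes. It was the only probe of NDUFA4. A stretch of that 60-base probe, with the 6 letters in capitals, reads as follows.
NDUFA4: agaagccacatcCGCACAattttccactta
It lies on the minus strand at chr7:10973189-10973218 of hg19, the build of the array's probe coordinates. The longer 7-letter match to the seed, ACGCACA, was in no member probe. For miR-629-3p the 6 letters GGAGAA were in 5 member probes (3.21%, against 3.6% of all gene probes), from COX17, NDUFA1, NDUFA2, NDUFB6 and NDUFS8. The 7 letters GGGAGAA were in none. For miR-874-3p the 6 letters AGGGCA were in 1 member probe (0.641%, against 1.46%), from NDUFA6-AS1. That probe also held the 7 letters CAGGGCA, found in 0.387% of all gene probes. A probe covers only a short part of a transcript, so these matches describe the probes and not the whole targets.

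The 113 names fell into 37 complex I subunits, 4 complex II subunits, 8 complex III subunits, 19 complex IV subunits, isoforms and paralogs, 17 complex V subunits and related genes, and 19 assembly factors. The other 9 names meet the rule but are not nuclear respiratory chain proteins: 4 antisense RNAs, 3 pseudogenes, and COX1 and COX2, which the mitochondrial genome encodes. The array's hg19 coordinates put the COX2 probe on the mitochondrial genome but the COX1 probe on chromosome 1, at chr1:567567-567626, and whether the COX1 signal comes from mitochondrial RNA was not tested. All 113 names matched RefSeq, and 22 have a newer symbol there, such as COXFA4 for NDUFA4 and ATP5MC1 for ATP5G1. The array's own names are used below. Levels are the log2 signal of a probe over the 75th percentile of its array, and where a gene had several probes, the brightest was used. Of the 106 genes tested, 104 were well above background on all 8 arrays. The 2 arrays of a group were close for these genes, with a median SD between 0.03 (miR-210-3p) and 0.05 (miR-874-3p).

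All 8 arrays were on 1 slide in a single scan. miR-629-3p and miR-210-3p were in the first row of the slide, and miR-874-3p and NC in the second. For miR-210-3p and miR-629-3p against NC or miR-874-3p, row and transfection cannot be told apart. Between 41.8% and 49.8% of gene probes were well above background on an array, and the first row was the higher (46.5% or more, against 46.3% or less). Of 10 squamous epithelial markers, 9 were detected on all 8 arrays. Their log2 summed level was 8.84 on both miR-210-3p arrays, 9.02 and 9.03 with miR-629-3p, 9.13 and 9.30 with miR-874-3p, and 9.25 and 9.33 with NC. KRT5, KRT14, KRT17 and SFN were lower with miR-210-3p, by 0.96 to 1.25 log2 units at adjusted p values between 0.013 and 0.027. Of 8 markers of immune, endothelial, stromal and pigment cells, COL1A2 and DCN were above background on no array and CD68 had no probe. PTPRC and PDGFRB were detected on all 8, and CD3E, PECAM1 and MLANA on at most 4, 2 and 1. Only 3 of this list were tested. Their log2 fold changes against NC ran from -1.58 to 0.50 with miR-210-3p and from 0.21 to 0.93 with miR-629-3p. With miR-874-3p they ran from -1.17 to 0.37. With miR-629-3p KRT14, KRT17 and CDH1 were lower, by 0.48 to 0.68, and DSG3 higher, by 0.72. PDGFRB was higher with miR-210-3p (log2 0.50, adjusted p = 0.032) and miR-629-3p (log2 0.47, adjusted p = 0.019), while the log2 summed level of the list was -0.02 on both miR-210-3p arrays, between 0.03 and 0.26 with miR-629-3p, -0.02 and 0.02 with miR-874-3p, and between -0.31 and 0.77 with NC. The part of these markers in the results below was not tested. In RNA from whole cultures, a lower level in every cell cannot be told apart from fewer cells that express a gene.

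Few respiratory chain genes differed from NC, and most of those that did were lower. A gene is said here to pass when its adjusted p (limma, Benjamini-Hochberg over all genes tested) was under 0.05, at any fold. With miR-210-3p 3 of the 106 passed (2.83%), all lower, where 6.05% of all genes passed 3.85% as higher and 2.2% as lower. With miR-629-3p 8 passed (7.55%), 7 lower and 1 higher, where 16.8% of all genes passed, 7.47% lower and 9.28% higher. With miR-874-3p none of the 106 passed, where 0.423% of all genes did. Over the 4 groups together, 12 passed the F test (11.3%), against 25.2% of all genes. In each of these comparisons the members' share passing in either direction was below that of all genes. Counting lower genes only, the members' share with miR-210-3p (2.83%) was close to that of all genes (2.2%), and 3 genes are too few to set them apart. With miR-629-3p the 7 lower of 106 were likewise near the 7.47% of all genes. With miR-874-3p so few of all genes passed that none among 106 says little about the members. Nearly all changes were small: 102 of 106 genes were within 0.5 log2 units of NC with miR-210-3p, and 104 with each of the other 2 miRNAs. By the study's own threshold, an unadjusted p under 0.05 and at least 2-fold, only NDUFA4 with miR-210-3p remained in the comparisons with NC, where 1.15% of all genes were lower by this call.

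**Figure D1:**
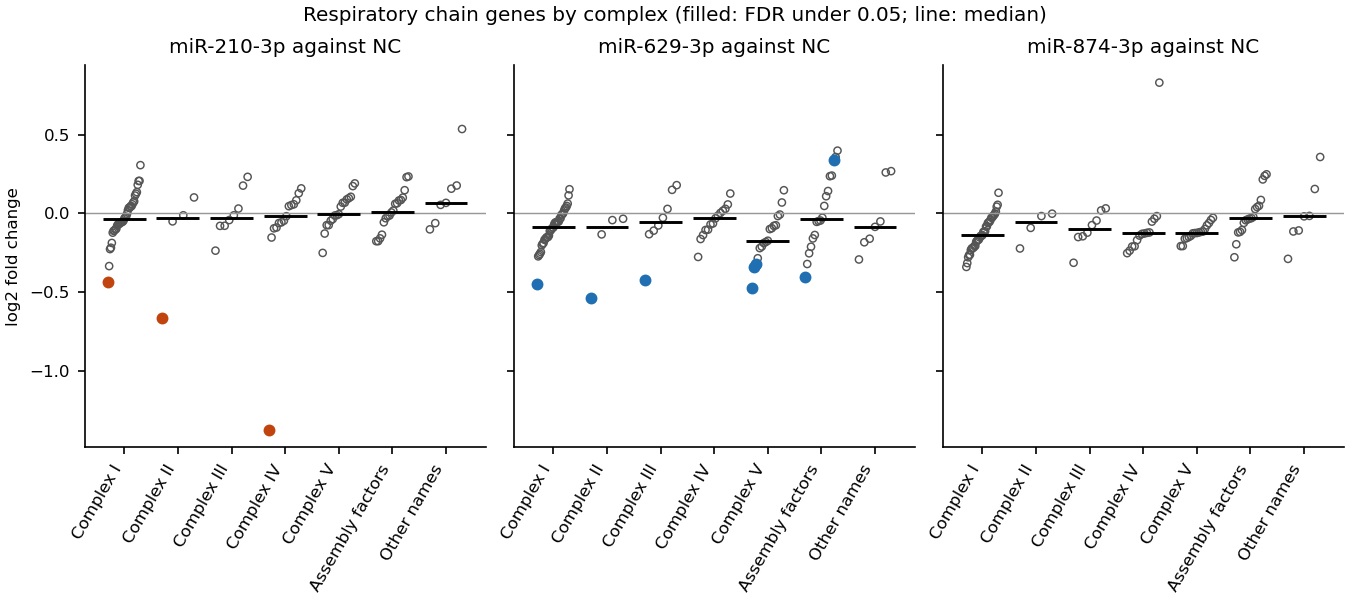
The log2 fold change against NC (vertical axis) of 105 tested genes is plotted by complex (horizontal axis) for each miRNA, with COX4I2 left out of the points. Filled points passed at an FDR under 0.05, and lines are medians over all tested genes of the group, COX4I2 included. NDUFA4 and SDHD stand below the rest with miR-210-3p, the miR-629-3p genes that passed are spread over complexes I, II, III and V and the assembly factors, and no point is filled with miR-874-3p.

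NDUFA4, SDHD and NDUFA11 fell with miR-210-3p. NDUFA4 was first described in complex I and is now counted as a subunit of complex IV. Its log2 level was 6.51 and 6.63 on the miR-210-3p arrays, 7.91 and 7.98 with NC, 8.02 and 7.98 with miR-629-3p, while the miR-874-3p arrays were at 7.81 and 7.79. Both miR-210-3p arrays lay more than 1 log2 unit below the other 6, with no overlap. Against NC this was -1.38 on the log2 scale (SE 0.08, adjusted p = 0.0045), 2.59-fold lower, with a 95% interval from -1.56 to -1.19. Its probe is the one shown above with CGCACA, and whether these letters act as a target site was not tested. Against miR-629-3p, in the same slide row, NDUFA4 was lower by a like amount: the log2 fold change of miR-629-3p over miR-210-3p was 1.43 (SE 0.08, adjusted p = 0.0014).

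SDHD is a membrane anchor of complex II, which binds ubiquinone together with SDHC. On its brightest probe the 2 miR-210-3p arrays were at log2 2.77 and 2.81 and the NC arrays at 3.49 and 3.41. The miR-629-3p arrays were at 3.39 and 3.43 and the miR-874-3p arrays at 3.26 and 3.20, so the miR-210-3p arrays were again the lowest of the 8. Against NC the difference was -0.66 log2 units (SE 0.07, adjusted p = 0.012), 1.58-fold lower. SDHD had 3 probes, 2 of which overlap on chromosome 11, and all 3 passed when every probe was tested, with log2 fold changes of -0.56, -0.57 and -0.66. The same gene on the within-row comparison was higher with miR-629-3p than with miR-210-3p by 0.62 log2 units (SE 0.07, adjusted p = 0.0056). The fall against NC was called in 15 of 21 alternatives. It was lost without either miR-210-3p array or without NC replicate 1. No filter on detection, only the groups compared and the methods' t-test lost it as well. The log2 fold change lay between -0.71 and -0.59 over all alternatives.

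The remaining complex II subunits did not pass with miR-210-3p. Their log2 fold change was 0.10 for SDHA, the flavoprotein, -0.01 for SDHB, the iron-sulphur subunit, and -0.05 for SDHC. The SDHA probe also matches the pseudogene SDHAP3. NDUFA11 is an accessory membrane subunit of complex I. Its log2 level was 5.72 and 5.78 with miR-210-3p, 6.13 and 6.24 with NC, 5.97 and 6.11 with miR-629-3p, while the miR-874-3p arrays were at 5.99 and 6.06. The miR-210-3p arrays were the lowest of the 8, and the log2 fold change against NC was -0.44 (SE 0.08, adjusted p = 0.046). This call was close to the threshold. It was lost in 12 of 21 alternatives, among them leaving out any of the 2 miR-210-3p, 2 NC or 2 miR-629-3p arrays. It was also lost with the authors' deposited values or outlier spots kept (adjusted p = 0.052 for each) and no filter on detection (adjusted p = 0.073). The same held with only the groups compared, the replicate number as a block and the methods' t-test. The log2 fold change lay between -0.49 and -0.38 throughout.

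COX10, the heme A synthesis enzyme that complex IV needs for assembly, did not fall. The miR-210-3p arrays were at log2 -1.24 and -0.97 and the NC arrays at -1.06 and -1.32, so the groups overlapped. The miR-629-3p arrays were at -1.05 and -0.85 and the miR-874-3p arrays at -0.85 and -1.03. Against NC the difference was 0.08 log2 units (SE 0.15), and its 95% interval ran from -0.29 to 0.45. ISCU, which is not a member by name, showed the same order of change as NDUFA4. Its log2 level was 4.87 and 4.93 with miR-210-3p, 6.09 and 6.04 with NC, 6.12 and 6.14 with miR-629-3p, while the miR-874-3p arrays were at 6.17 and 6.05. Against NC it was lower by 2.24-fold (log2 -1.17, SE 0.07, adjusted p = 0.0057).

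**Figure D2:**
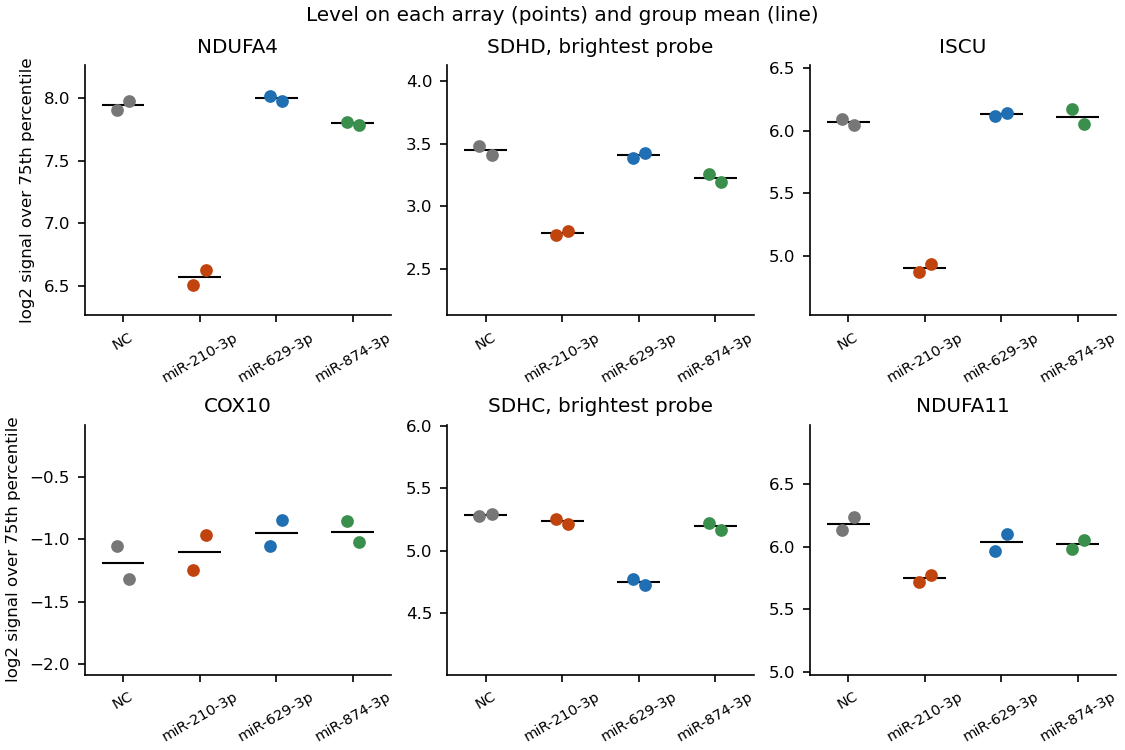
The log2 level over the 75th percentile (vertical axis) of 6 genes is shown on each array (points) with the mean of each group (lines), and every panel spans 2 log2 units. The miR-210-3p arrays are the lowest for NDUFA4, SDHD, ISCU and NDUFA11, the miR-629-3p arrays for SDHC, and the groups overlap for COX10.

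With miR-210-3p the other members stayed near NC. The median log2 fold change of all 106 was -0.01, against 0.05 for all genes, and 57 of the 106 were below 0 (53.8%, against 42.4% of all genes). With the authors' deposited values the members' median was 0.02 and 44 were below 0. By group the median was -0.03 for complex I, -0.03 for complex II, -0.03 for complex III, -0.02 for complex IV, and -0.01 for complex V. The direction of each of these medians turned under at least 1 other scaling, probe or filter choice. Of the 17 complex V genes none passed, where 6.05% of all genes did, and their log2 fold changes ran from -0.25 to 0.19. Among the members that did not pass, the antisense RNA NDUFV2-AS1 had a log2 fold change of 0.54 (adjusted p = 0.076) and NDUFA10, an accessory subunit of complex I, one of -0.33 (adjusted p = 0.070). The NDUFA10 value is that of its brightest probe. Its 3 detected probes differed in direction, with log2 fold changes from -0.33 to 1.37, and none passed with every probe tested.

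With miR-629-3p 7 members fell, from several complexes and each by 1.45-fold or less. SDHC, the second membrane anchor of complex II, changed most. Its log2 level on the brightest probe was 4.77 and 4.73 with miR-629-3p and 5.28 and 5.29 with NC. The miR-210-3p arrays were at 5.26 and 5.21 and the miR-874-3p arrays at 5.22 and 5.17, so the miR-629-3p arrays stood alone. Against NC the difference was -0.54 log2 units (SE 0.07, adjusted p = 0.0095), 1.45-fold lower. With every probe tested, the 3 detected probes of SDHC gave -0.54, -0.58 and -0.61, of which the first 2 passed. SDHC was also lower with miR-629-3p than with miR-210-3p, at -0.48 on the log2 scale (SE 0.07, adjusted p = 0.0085), within 1 slide row. The call against NC was lost in 4 of 21 alternatives. These were the methods' t-test and leaving out miR-629-3p replicate 1, miR-629-3p replicate 2 or NC replicate 2. The log2 fold change lay between -0.57 and -0.48 over all alternatives.

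Of the 17 complex V genes 3 fell with miR-629-3p (17.6%, where 7.47% of all genes were lower and 16.8% passed in either direction). ATP5G1 encodes the c subunit of the rotating membrane ring. Its log2 level was 4.76 and 4.88 with miR-629-3p and 5.23 and 5.36 with NC, a difference of -0.48 log2 units (SE 0.09, adjusted p = 0.025). ATP5O, part of the stator stalk, had log2 levels of 7.71 and 7.75 with miR-629-3p and 8.02 and 8.13 with NC, a difference of -0.34 log2 units (SE 0.07, adjusted p = 0.030). ATP5B, the catalytic beta subunit, had log2 levels of 5.99 and 5.97 with miR-629-3p and 6.29 and 6.30 with NC, a difference of -0.32 log2 units (SE 0.07, adjusted p = 0.033). The ATP5B call was also lost with the authors' deposited values, outlier spots kept, quantile normalization or no filter on detection (adjusted p from 0.051 to 0.056), and in 13 of 21 alternatives in all. For all 3 genes the miR-629-3p arrays were the lowest of the 8. In complex V 15 genes were below 0, with a median log2 fold change of -0.17 that ranged from -0.21 to -0.09 over the alternative settings.

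UQCRC2, a core subunit of complex III, had log2 levels of 5.20 and 5.15 with miR-629-3p and 5.58 and 5.62 with NC, a difference of -0.43 log2 units (SE 0.07, adjusted p = 0.017). The assembly factors that passed moved in opposite directions. NDUFAF7, a methyltransferase of complex I assembly, fell, at -0.40 log2 units (SE 0.09, adjusted p = 0.034), with log2 levels of 2.84 and 2.93 against 3.29 and 3.29 in NC. SDHAF2, which helps to attach flavin to SDHA, rose, with log2 levels of 3.38 and 3.43 against 3.05 and 3.09 in NC, a difference of 0.34 log2 units (SE 0.07, adjusted p = 0.030). None of the 15 complex IV genes tested passed, where 16.8% of all genes did.

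**Figure D3:**
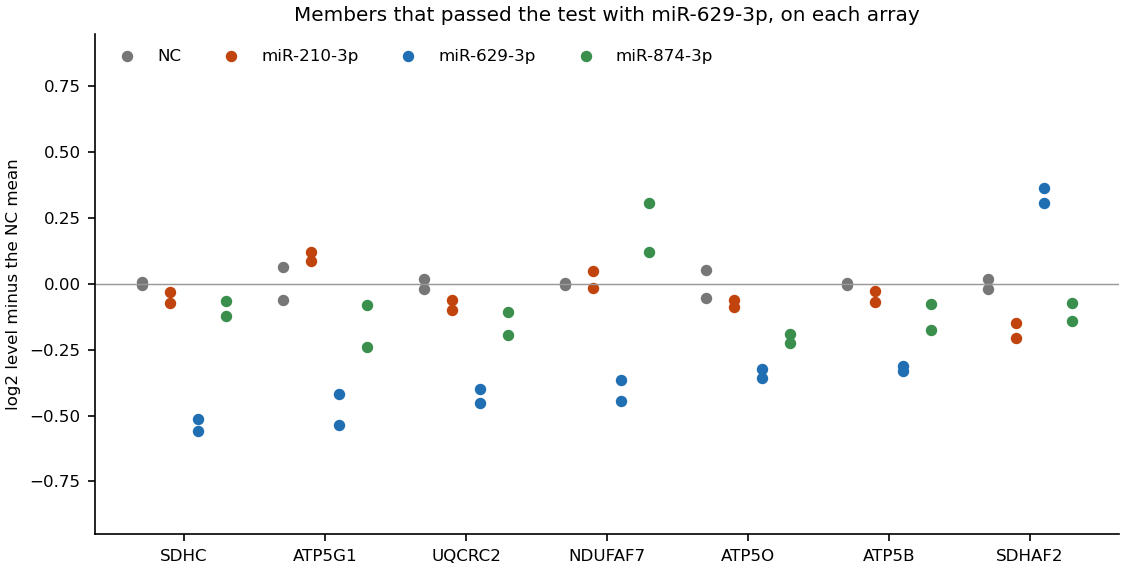
The log2 level minus the mean of the NC arrays (vertical axis) is shown on each array for 7 of the 8 genes that passed with miR-629-3p (horizontal axis), with 1 colour for each group. The miR-629-3p points are the lowest for the first 6 genes and the highest for SDHAF2, and no array of another group reaches them.

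Each of these miR-629-3p calls was lost when some single arrays were left out, unlike that of NDUFA4 with miR-210-3p, which passed with any of the 8 left out. Without miR-629-3p replicate 1 or 2 none of the 8 genes passed, without NC replicate 1 SDHC alone of the 8 passed, and without NC replicate 2 none of the 8 did. Without miR-210-3p replicate 1 or 2, which enter only through the shared estimate of spread, SDHC and UQCRC2 still passed and the other 6 did not (adjusted p from 0.056 to 0.076). Leaving out a miR-874-3p array cost none of the 8. The fold changes moved little in these fits: that of ATP5G1, for example, lay between -0.54 and -0.41. All 8 genes also passed against miR-210-3p within the slide row, in the same direction, with log2 fold changes from -0.58 for ATP5G1 to 0.51 for SDHAF2, those of ATP5B (adjusted p = 0.041) and ATP5O (adjusted p = 0.048) close to the threshold. The 2 comparisons share the miR-629-3p arrays. The median of all 106 members was -0.07, against 0.02 for all genes, and 77 were below 0 (72.6%, against 46.8% of all genes). With quantile normalization the members' median was -0.01 and 57 were below 0, and with the authors' deposited values it was -0.03 and 64 were. The group medians of -0.09 for complex I, -0.05 for complex III and -0.03 for complex IV turned to 0.00, 0.04 and 0.02 with quantile normalization.

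With miR-874-3p no member passed by limma, while 24 of the 106 had an unadjusted p under 0.05, where 16.4% of all genes did. The methods' t-test with Benjamini-Hochberg adjustment gave 0 as well, and limma with a trend in the prior gave 4, all lower. Although no single gene passed, 89 of the 106 were below 0, against 51.2% of all genes, and the median was -0.12 against -0.01. Over 6 other scalings and background settings the median lay between -0.12 and -0.07 and the number below 0 between 72 and 90. All 17 complex V genes, 33 of 37 complex I genes and all 11 regular complex IV subunits were below 0. The group medians of complexes I to V stayed negative under each alternative setting tried, from -0.14 to -0.02. Genes measured on the same 4 arrays are not independent, so this common shift of about 0.1 log2 units carries no test. The largest falls were a log2 fold change of -0.34 for NDUFA9 (adjusted p = 0.13) and -0.32 for NDUFS5 (adjusted p = 0.14), both accessory subunits of complex I. NDUFA9 was at 3.62 and 3.63 with miR-874-3p and 3.95 and 3.98 with NC. This comparison lies within 1 slide row.

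The miRNAs were also compared with each other. miR-629-3p against miR-210-3p, within a slide row, gave 16 members that passed (15.1%, against 22.6% of all genes). Of these 4 were higher and 12 lower with miR-629-3p, where 9.83% and 12.7% of all genes were. Beside the genes above, the lower ones included COX15 (log2 -0.55), which works with COX10 in heme A synthesis, the complex I accessory subunits NDUFB5 (log2 -0.42) and NDUFB6 (log2 -0.39), and the mitochondrially encoded COX2 (log2 -0.36). The 2 detected probes of COX15 differed in sign with miR-629-3p against NC (log2 -0.32 and 0.02), and neither passed there. The assembly factor COX20, which handles the COX2 protein, was higher (log2 0.57, adjusted p = 0.043). Both comparisons with miR-874-3p cross the slide rows, so row and transfection cannot be told apart in them. Between miR-210-3p and miR-874-3p 5 members differed (4.72%, against 9.8% of all genes, 6.33% higher and 3.47% lower with miR-210-3p). NDUFA4 (log2 -1.23) and SDHD (log2 -0.44) were lower with miR-210-3p, and COX8A (log2 0.41), NDUFA3 (log2 0.35) and the antisense RNA NDUFA6-AS1 (log2 0.47) were higher. Between miR-629-3p and miR-874-3p 8 differed (7.55%, against 16.2% of all genes, 9.34% higher and 6.88% lower with miR-629-3p), among them NDUFAF7 (log2 -0.62) and SDHC (log2 -0.44), which were lower, and SDHAF2 (log2 0.44), NDUFA6-AS1 (log2 0.56), NDUFC1 (log2 0.30), COX17 (log2 0.28) and NDUFS7 (log2 0.26), which were higher. The values of NDUFA6-AS1 are those of the brightest of its 3 detected probes, and with every probe tested the other two did not pass. They gave 0.93 and -0.15 for miR-210-3p over miR-874-3p, and 0.98 and -0.43 for miR-629-3p over miR-874-3p, on the log2 scale.

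Tissue-specific isoforms of complex IV were mostly near or under the limit of detection. COX7A1, COX7B2, COX8C and NDUFA4L2 were well above background on no array, and neither were the assembly factor COX18 and the pseudogene UQCRBP1. The pseudogene NDUFAF4P1 was detected on 1 array and was not tested. The general isoform COX4I1 was at log2 6.65 to 6.81 on all 8 arrays. COX4I2, the isoform linked to low oxygen, was at log2 0.16 and -3.32 with miR-629-3p and at -0.43 and -3.09 with miR-210-3p. It was not well above background on any miR-874-3p or NC array. The first replicate was over 2 log2 units above the second in both groups. Neither difference from NC passed by limma (adjusted p = 0.23 for miR-210-3p, adjusted p = 0.16 for miR-629-3p). The dimmest detected signal on the NC arrays was at log2 -2.84 and -2.82, above the second replicate of each of these groups. A signal as dim as the second replicates would not have counted as detected with NC, so no minimum fold holds for both replicates. COX6A2, the muscle isoform, was at log2 -2.70 and -2.51 with miR-874-3p and not well above background with NC (at least 1.17-fold higher, adjusted p = 0.15). The bright COX6B2 probe, at log2 5.60 to 5.93, also matches transcripts of CAMLG, C3orf33 and MXRA7. The second COX6B2 probe was at 0.91 and -2.36 with miR-874-3p and between -2.83 and -2.09 on the other 6 arrays, so a single array stood apart. COX7A2L, which helps to join complexes III and IV, lay between log2 5.46 and 5.66 throughout and did not pass.

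Where a gene had several probes, they did not always move together. Of 27 tested genes with more than 1 detected probe, 5 had probes that differed in their call with miR-629-3p, and none did with miR-210-3p or miR-874-3p. The sign of the fold change differed among the probes of 11 genes with miR-210-3p, 12 with miR-629-3p and 9 with miR-874-3p. For UQCRB, UQCR10 and NDUFC2 the brightest probe was flat and a dimmer one, farther downstream on the transcribed strand, was higher with miR-629-3p. Distances are between probe positions on the genome, not along a transcript. UQCRB and UQCR10 are small subunits of complex III. The dimmer probe of UQCRB, 4752 bases downstream, was at log2 -1.18 and -1.37 with miR-629-3p and -2.34 and -2.53 with NC, a difference of 1.16 log2 units (SE 0.21, adjusted p = 0.024 with every probe tested). That of UQCR10, 110 bases downstream, was at log2 0.71 and 0.61 with miR-629-3p and -0.06 and -0.27 with NC, a difference of 0.83 log2 units (SE 0.11, adjusted p = 0.011). NDUFC2 is an accessory subunit of complex I. Its dimmer probe, 11208 bases downstream, was at log2 1.78 and 1.71 with miR-629-3p and 0.67 and 0.50 with NC, a difference of 1.17 log2 units (SE 0.15, adjusted p = 0.011). Over the brightest probes the log2 fold changes were 0.03, 0.15 and 0.04. The main NDUFC2 probe also matches the read-through gene NDUFC2-KCTD14. In NDUFA10, 1 of 3 probes passed as lower (log2 -0.33), the brightest gave -0.26 and the third 0.26.

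**Figure D4:**
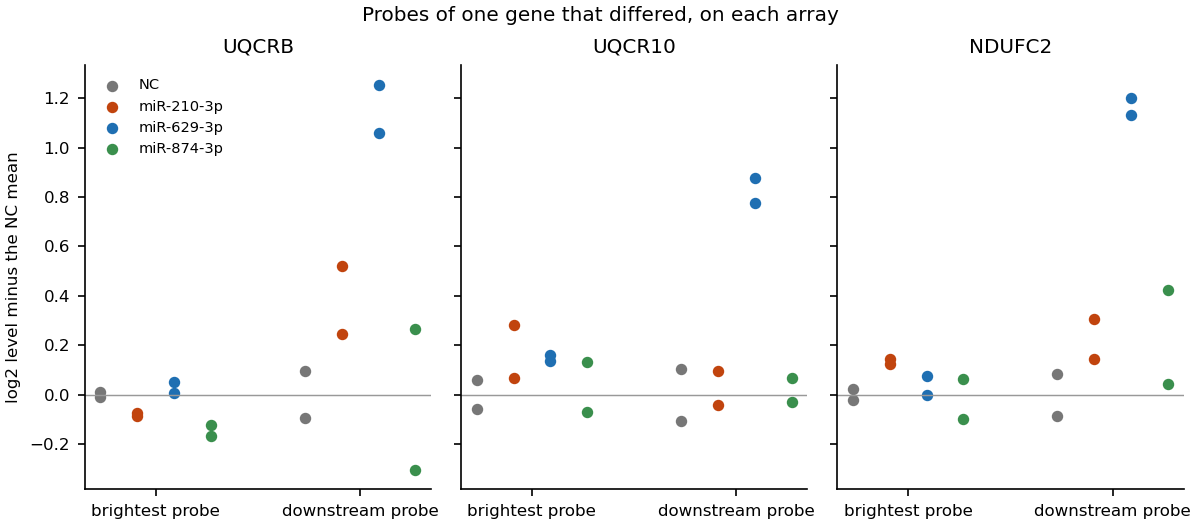
The log2 level minus the NC mean of the same probe (vertical axis) is shown on each array for the brightest and the downstream probe of UQCRB, UQCR10 and NDUFC2. On the downstream probes both miR-629-3p arrays lie above all other arrays, and on the brightest probes no such gap is seen.

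Other genes of the pathway, listed by function rather than by name, were counted in the same fit. Of 73 genes, 72 were tested. With miR-210-3p 2 were lower and none higher (2.78%, against 6.05% of all genes): ISCU, above, and IBA57, a late factor of iron-sulphur cluster assembly (log2 -0.59, SE 0.11, adjusted p = 0.040). With miR-629-3p 8 were lower and 1 higher (12.5%, against 16.8% of all genes, 7.47% lower), and with miR-874-3p none passed, where 0.423% of all genes did. Those lower with miR-629-3p included LRPPRC (log2 -0.59), which stabilises mitochondrial messenger RNA, NUBPL (log2 -0.54), which delivers iron-sulphur clusters to complex I, and PET100 (log2 -0.52), a complex IV assembly factor. LRPPRC was at log2 4.22 and 4.19 with miR-629-3p and 4.71 and 4.88 with NC. The iron-sulphur cluster genes NFS1 (log2 -0.52), IBA57 (log2 -0.43) and LYRM4 (log2 -0.37) were also lower. The gene that rose, C14orf2, encodes a small protein bound to ATP synthase (log2 0.45, adjusted p = 0.021). None of 12 regulators of mitochondrial biogenesis passed in any comparison with NC, and 12 genes are too few to set this apart from the shares of all genes above.

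The promoters of the members were searched for motifs of factors known to act at respiratory chain genes. RefSeq windows of 300 bases (250 before to 50 after a start, GRCh38.p14) were on hand for 86 of the 104 nuclear protein-coding names, 107 windows in all, since some genes have several starts. On either strand, CGCANGCG, the core of the NRF1 motif, was in 29.9% of the member windows, against 12.8% of 22199 windows of protein-coding genes. CCGGAAG of the ETS family was in 26.2% against 12.8%, and AAGATGGCG of YY1 in 10.3% against 2.41%. These are letter matches and not measured binding.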

How the data were processed

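Gene expression was measured on 1-colour Agilent arrays labelled with Cy3, 2 for each of 4 groups. The deposited scanner files hold spot intensity (per the labels, from Agilent Feature Extraction 11.5.1.1), of which the processed signal, already corrected for background by the authors, was used. The authors' deposited table holds log2 values, which matched the log2 processed signal minus about the 75th percentile of each array within a constant.

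Outlier spots were left out (87 to 346 of 60901 per array), and the spots of a probe were averaged on the log2 scale. The 75th percentile over gene probes was subtracted, and 27303 of 58201 probes were kept (with a value on all 8 arrays and detected above background on both arrays of 1 group or more). The brightest probe stood for each gene. limma 3.58.1 in R 4.3.3 was fitted to all 4 groups (4 residual and 1.68 prior degrees of freedom), with Benjamini-Hochberg adjustment over 21283 genes. The number of arrays limits the precision. The fitting step was also tested on simulated data. In a group not well above background, a fold is a bound against the dimmest detected signal. The methods' threshold was an unadjusted p under 0.05 with at least 2-fold. Sequences and current symbols are from RefSeq.

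The members and gene lists were chosen with earlier results of these data known. The genes named are, for each comparison with NC, up to 6 members that changed most in each direction among those that passed, the reported targets of miR-210-3p, complex II, the complex IV isoforms, members whose probes differed, and ISCU with the pathway genes that changed most. Members from comparisons between miRNAs, further pathway genes and the largest changes that did not pass were added after their values were seen. The same-numbered arrays of the groups did not deviate together (correlations from -0.11 to 0.03 over 21283 genes). One member that passed with miR-629-3p is counted but its values are not reported here.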

Additional observations from a re-analysis of the deposited data

How the results depend on the processing

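With 2 arrays in a group, the counts of members that passed depended on the setting, in some comparisons by more than 1.5 times. The causes were not tested. The share of all genes under these other settings is not given here, so these counts do not show whether the members stayed below it. For miR-210-3p against NC 3 became 7 with normexp background correction, 1 with no filter on detection, 5 with detection on all arrays, 5 with every probe counted, 1 with only the groups compared, 9 with eBayes with trend, 0 with the methods' t-test and 1 by the paper's call. For miR-629-3p against NC 8 became 16 with normexp, 13 with every probe, 2 with only the groups compared, 17 with trend, 0 with the t-test and 0 by the paper's call. For miR-874-3p against NC 0 became 4 with trend. For miR-629-3p against miR-210-3p 16 became 25 with normexp, 2 with no filter, 30 with trend, 4 with the t-test and 1 by the paper's call. For miR-210-3p against miR-874-3p 5 became 13 with normexp, 8 with the authors' deposited values, 8 with outlier spots kept, 1 with no filter, 8 with detection on all arrays, 0 with only the groups compared, 18 with trend, 1 with the t-test and 1 by the paper's call. For miR-629-3p against miR-874-3p 8 became 16 with normexp, 13 with quantile normalization, 0 with only the groups compared, 25 with trend, 0 with the t-test and 0 by the paper's call. For the F test 12 became 33 with normexp, 22 with detection on all arrays, 43 with trend and 25 with the methods' ANOVA. Leaving out 1 array at a time gave 1 to 3 for miR-210-3p against NC, 0 to 8 for miR-629-3p against NC, 0 throughout for miR-874-3p against NC, 2 to 18 for miR-629-3p against miR-210-3p, 1 to 5 for miR-210-3p against miR-874-3p, 0 to 7 for miR-629-3p against miR-874-3p, and 1 to 14 for the F test. A group left with 1 array was assumed to vary like the others.

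With the replicate number as a block the counts were 2 for miR-210-3p against NC, 2 for miR-629-3p against NC, 7 for miR-629-3p against miR-210-3p, 1 for miR-210-3p against miR-874-3p, 4 for miR-629-3p against miR-874-3p, 0 for miR-874-3p against NC and 3 for the F test; the numbers do not pair the samples. Crossing the numbers of the miR-874-3p arrays, chosen after seeing that same-numbered miR-874-3p and NC arrays deviated in opposite directions, gave 0 as well.

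Over all alternatives no named member that passed changed direction: of 567 repeats of 27 such fold changes, 384 passed and 183 did not. NDUFA4 with miR-210-3p against NC passed in 20 of 21 alternatives and missed with the methods' t-test (adjusted p = 0.13, range 0.0002 to 0.13). Named members that did not pass became called in 31 of 2342 repeats. The medians of the complexes moved by more than the spread between replicates in 57 of 189 repeats.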

Other observations

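The mitochondrial genome encodes further subunits of complexes I, III and V, and 9 of these were measured beside COX1 and COX2. With miR-210-3p none of the 9 passed, where 6.05% of all genes did, and their log2 fold changes ran from -0.27 for ND1 to 0.20 for ATP8. With miR-629-3p 1 of the 9 passed, where 16.8% of all genes did. This was ATP8, a subunit of complex V, which was higher (log2 0.33, SE 0.06, adjusted p = 0.027 by limma). ND5 was at -0.19 and CYTB of complex III at -0.01. With miR-874-3p none passed, where 0.423% of all genes did, and the values ran from -0.21 for ATP6 to 0.04 for ATP8. COX2 itself was at log2 9.07 and 9.08 with miR-629-3p and 9.29 and 9.44 with NC (log2 fold change -0.29, adjusted p = 0.054).

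PPARGC1A, a coactivator of mitochondrial biogenesis, was at log2 -0.99 and -1.68 with miR-629-3p and not well above background on either NC array. It was at least 2.82-fold higher and did not pass (adjusted p = 0.060).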
